A study of Homo sapiens with 64 samples.

Results

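The genes described here are 38 genes of the response to low oxygen and of glycolysis, out of 54127 genes listed in every count table, and all 38 were found. They were picked by gene symbol and matched to the tables by Ensembl identifier, so no measured value entered the choice. Of these genes, 18 encode hypoxia-inducible factor (HIF) alpha subunits, some of the hydroxylases that sense oxygen (EGLN1 and EGLN3), and products of HIF target genes. The other 20 take glucose from uptake to lactate. RNA was sequenced from 64 samples of established colorectal cancer cell lines, grown as spheroids in non-adherent, serum-free culture with EGF and bFGF in incubators at reduced oxygen.

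When oxygen is plentiful, prolyl hydroxylases mark the HIF alpha subunits for destruction. When oxygen falls, the alpha subunits persist, join the beta subunit ARNT and bind short DNA elements with the core ACGTG or GCGTG near their target genes. The targets include angiogenic factors, pH regulators, matrix enzymes and most of the glycolytic pathway, and inside tumour spheroids an oxygen gradient is known to form from rim to core. HIF alpha is controlled mainly at the level of protein, so the RNA of HIF1A and EPAS1 is not a measure of HIF activity. Many glycolytic enzymes, in contrast, are abundant in every cell.

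In 48 of the samples, cells had been loaded with CFSE, which each division dilutes, and sorted after spheroid culture. Label-retaining cells (LRCs) were the bright cells, which had divided little, and non-LRCs were the bulk of the dye-labelled cells. There were 4 LRC and 4 non-LRC samples from each of HT55 and SW948 (subtype CCS1), RKO and SW48 (CCS2), and DLD1 and HCT15 (CCS3). The other 16 samples were controls labelled DLD1, not split by dye brightness, with 4 samples each of CFSE-labelled and DMSO-treated, unlabelled cells on day 1 and on day 5. The sample labels give day 5 where the series' description gives day 6. Each subtype is represented by 2 lines, and the study's methods call the 4 samples of a group biological replicates. Reads assigned to genes numbered 12237225 to 20913455 a sample (median 15063858).

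Some libraries stood apart. Within HT55, the LRC and non-LRC samples of replicate 2 differed by a chi-square of 3.73 per gene, against 14.4 to 25.7 in the other 3 pairs. Within SW948, those of replicate 4 differed by 3.06, against 13.9 to 22.8. The closest replicates of the same group differed by 2.20 to 8.09, so both pairs were about as close as replicates, and results that rest on them are given with and without them. Both pairs were singled out by their small LRC difference, so leaving them out favours larger LRC differences. All 16 control libraries labelled DLD1 correlated more closely with sorted samples labelled HCT15 (r = 0.951 to 0.992) than with sorted samples labelled DLD1 (r = 0.915 to 0.956). Between the sorted samples of these labels, 153 genes differed by over 4 log2 units. Of these, 88.2% to 100% were nearer HCT15 in each control library. Whether a label is off, and which, was not tested. Controls and sorted samples are therefore not set against each other. DMSO day 1 replicate 4 had a mean r of 0.975 with its own group, the lowest of the 64 libraries. It enters every comparison with DMSO day 1, and whether its label is off was not tested. Summed colorectal epithelium markers stood at 2714 to 21480 CPM, read counts scaled to library size, in the libraries of 5 lines and the controls, but at only 220 to 335 CPM in RKO. Summed fibroblast markers reached at most 14.0 CPM and endothelial markers 3.59 CPM. Of the blood markers, CD3E was at 0 throughout and HBB, HBA1 and PTPRC reached at most 22.3 CPM, whereas CD68 stood at 1000 to 1620 CPM in RKO and rose in LRCs across the 6 lines (log2 fold change 0.77 ± 0.14 SE, adjusted p = 4.216e-05). The part of CD68 expression in the results below was not tested.

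The promoters of 34 of the 38 genes were matched in the RefSeq table for build GRCh38.p14, which holds the 250 bases before and 50 bases after each start. The motifs searched were ACGTG and GCGTG on both strands, where the palindrome CACGTG counts on each strand. At least 1 match was found in 25 of the 34 promoters (73.5%), against 48.4% of all 35116 promoters in the table. ACGTG was in 15 of them (44.1%, against 21.4% of all promoters) and GCGTG in 15 (44.1%, against 36.5%). More than 1 match was found in 9 of the 34 (26.5%), near the 23.1% of all promoters. For each of these genes the first promoter listed was used, whereas the shares of all promoters count every one listed. The promoters of PDK1, EGLN3, P4HA2, HK1, PFKM, PFKP, TPI1, PGAM1 and SLC16A3 held neither motif in this window. The stretches below are from 6 genes that rose in LRCs across the lines and from LDHA and ENO1, textbook HIF targets of glycolysis that did not rise across the lines. All were chosen among promoters with a match, and each stretch was placed around one, so its presence there is no result. P4HA2, EGLN3 and HK1 also rose across the lines but held neither motif in the window searched. Each is printed 5′ to 3′ in the direction of transcription, with matches on either strand in capitals, and a match in these letters is not a measured binding site.
EPAS1 (chr2:46297263-46297322, plus strand): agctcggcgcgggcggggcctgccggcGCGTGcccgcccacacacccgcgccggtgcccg
ADM (chr11:10304944-10305003, plus strand): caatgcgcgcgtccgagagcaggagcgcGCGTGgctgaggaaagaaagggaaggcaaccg
ANKRD37 (chr4:185396659-185396718, plus strand): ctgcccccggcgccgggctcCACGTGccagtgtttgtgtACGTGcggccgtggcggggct
P4HA1 (chr10:73096921-73096980, minus strand): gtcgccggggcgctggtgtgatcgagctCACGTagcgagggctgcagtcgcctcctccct
HK2 (chr2:74834045-74834104, plus strand): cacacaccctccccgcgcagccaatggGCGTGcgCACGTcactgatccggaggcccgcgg
ENO2 (chr12:6914434-6914493, plus strand): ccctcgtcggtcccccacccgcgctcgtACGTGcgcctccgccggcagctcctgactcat
LDHA (chr11:18394449-18394508, plus strand): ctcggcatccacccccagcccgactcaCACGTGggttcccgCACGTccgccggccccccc
ENO1 (chr1:8878725-8878784, minus strand): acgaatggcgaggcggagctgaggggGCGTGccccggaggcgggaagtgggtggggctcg

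Before any LRC comparison, the lines differed widely in which of the 38 genes they used. EPAS1, which encodes HIF-2alpha (ENSG00000116016, GRCh37 chromosome 2, 46520806 to 46613836), had a mean of 176 CPM ± 4.08 (SD, n = 4) in non-LRCs of SW948. It then fell in order through HT55 (139 ± 11.01), HCT15 (102 ± 12.6), DLD1 (57.4 ± 4.28), SW48 (38.5 ± 9.20) and RKO (8.29 ± 1.02), and no neighbouring lines in this order overlapped. HIF1A, which encodes HIF-1alpha, followed a different order, from 174 ± 27.4 CPM in HCT15 through SW48 (156 ± 21.3), DLD1 (129 ± 2.15) and RKO (127 ± 7.77) to SW948 (81.2 ± 7.55) and HT55 (43.9 ± 4.62). The lines highest in EPAS1, SW948 and HT55, were thus lowest in HIF1A. In that order HCT15, SW48, DLD1 and RKO each overlapped their neighbours, while SW948 and HT55 stood apart. Per kilobase of transcript, EPAS1 made up 70.8% ± 2.44 (SD, n = 4) of the RNA of both alpha subunits in non-LRCs of HT55 and 62.4% ± 2.39 in SW948, but only 4.77% ± 0.714 in RKO.

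Some of the targets were uneven too, whereas others differed little between the lines. The highest and the lowest mean among the lines differed by 1.38-fold for EGLN1, 1.4-fold for P4HA1, 2.55-fold for KDM3A and 3.39-fold for ADM, against 21.2-fold for EPAS1. CA9, a carbonic anhydrase that regulates pH at the cell surface, had a mean of 44.9 CPM in SW948, 27.2 in HCT15 and 20.8 in RKO, but under 0.1 CPM in SW48 and sorted DLD1 non-LRCs, with 2 and 4 reads in all over 4 libraries. EGLN3, an oxygen-sensing prolyl hydroxylase, had a mean of 71.7 CPM in SW948 and 0.0535 CPM in RKO, where it was represented by 3 reads. BNIP3, a mitophagy receptor, reached 3.44 CPM in HT55 and at most 0.0324 CPM in the non-LRCs of the other lines, although reads shared with near-identical copies were not counted. LOX, a collagen cross-linking enzyme, had a mean of at most 0.817 CPM in the non-LRCs of any line. SLC2A1, the glucose transporter GLUT1, stood at 6385 CPM ± 625 in HT55 and between 199 and 608 CPM in the other 5 lines. SLC2A3, the glucose transporter GLUT3, ranged from 72.0 CPM in HCT15 and 68.8 in HT55 to 0.316 in SW48 and 0.432 in SW948. GAPDH, a housekeeping glycolytic enzyme, differed far less, from 2477 CPM in SW48 to 4704 CPM in RKO. Counts of GAPDH, PGK1, ALDOA, LDHA, ENO1, TPI1, PKM and PGAM1, which have processed pseudogenes, and of SLC2A3, which has a close paralog, are uncertain because reads that aligned to several places were not counted.

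Whether LRCs carry a different hypoxia and glycolysis programme was asked first across all 6 lines, with line as a covariate. EPAS1 and many HIF targets were higher in LRCs, while the genes of glycolysis split. Of the 38 genes, 18 passed the test at an adjusted p of 0.05 (15 higher and 3 lower in LRCs), against 22.9% of the 16603 genes tested (12.2% higher and 10.7% lower). The median log2 fold change was 0.17 over the 38 genes and 0.01 over all genes tested. Of the 18 subunit, hydroxylase and target genes, 11 rose and none fell (median log2 fold change 0.35). Of the 20 genes from glucose uptake to lactate, 4 rose and 3 fell (median 0.04).

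EPAS1 was higher in the LRC sample of 24 of 24 same-numbered pairs, with a log2 fold change of 0.50 ± 0.08 (SE, adjusted p = 2.979e-06). ADM, which encodes the vasodilator peptide adrenomedullin (ENSG00000148926, GRCh37 chromosome 11, 10326620 to 10328944), rose by 0.82 ± 0.13 (adjusted p = 1.21e-05, higher in 21 of 24 pairs). Of the other secreted factors, ANGPTL4, an inhibitor of lipoprotein lipase, rose by 0.62 ± 0.16 (adjusted p = 0.00287). The angiogenic factor VEGFA had a log2 fold change of 0.27 ± 0.13 and did not pass (adjusted p = 0.146). Each was higher in 18 of 24 pairs, and a difference between them was not tested.

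Among the enzymes, P4HA1, a subunit of the collagen prolyl 4-hydroxylase, rose by 0.45 ± 0.07 (adjusted p = 1.426e-05, 23 of 24 pairs) and its paralog P4HA2 by 0.28 ± 0.05 (adjusted p = 0.000146). KDM3A, a histone demethylase, rose by 0.37 ± 0.06 (adjusted p = 1.316e-05, 22 of 24 pairs). Of the oxygen-sensing prolyl hydroxylases, EGLN1 rose by 0.17 ± 0.05 (adjusted p = 0.00469, 20 of 24 pairs) and EGLN3 by 0.38 ± 0.14 (adjusted p = 0.0413, 17 of 24 pairs). EGLN2 was not analysed. EGLN3 was lower in the LRC sample of every HCT15 pair (log2 differences -0.0834, -0.122, -0.0215 and -0.0732). In DLD1 its differences were 0.307, -0.0127, -0.112 and -0.207. ANKRD37, a small ankyrin repeat protein and common marker of HIF activity (GRCh37 chromosome 4, 186317175 to 186321782), rose by 0.55 ± 0.13 (adjusted p = 0.00138, 23 of 24 pairs). NDRG1, a stress-responsive protein, rose by 0.52 ± 0.14 (adjusted p = 0.00418), and the mitophagy receptor BNIP3L by 0.19 ± 0.06 (adjusted p = 0.0137). HIF1A had a log2 fold change of -0.03 and was higher in 9 of 24 pairs. CA9, PDK1, BNIP3, LOX and the lactate exporter SLC16A3 also did not pass the test.

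In the pathway from glucose to lactate, the rises sat at entry and in 1 enolase. SLC2A3 rose by 1.11 ± 0.17 (adjusted p = 6.408e-06, 22 of 24 pairs), whereas SLC2A1 had a log2 fold change of 0.25 ± 0.13 (adjusted p = 0.159). The hexokinases, which trap glucose in the cell, rose as HK2 by 0.29 ± 0.07 (adjusted p = 0.00256, 23 of 24 pairs) and HK1 by 0.12 ± 0.04 (adjusted p = 0.0175). ENO2, the neuronal enolase, rose by 0.40 ± 0.10 (adjusted p = 0.0018), whereas ENO1, the ubiquitous enolase, was lower in LRCs by a log2 fold change of -0.22 ± 0.05 (adjusted p = 0.00108, lower in 20 of 24 pairs). The phosphofructokinases PFKM (-0.15 ± 0.04, adjusted p = 0.00432) and PFKL (-0.10 ± 0.04, adjusted p = 0.0495) also fell. GAPDH, TPI1, PGAM1, PGK1, PKM, LDHA, GPI, ALDOA and ALDOC did not pass the test.

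**Figure D1:**
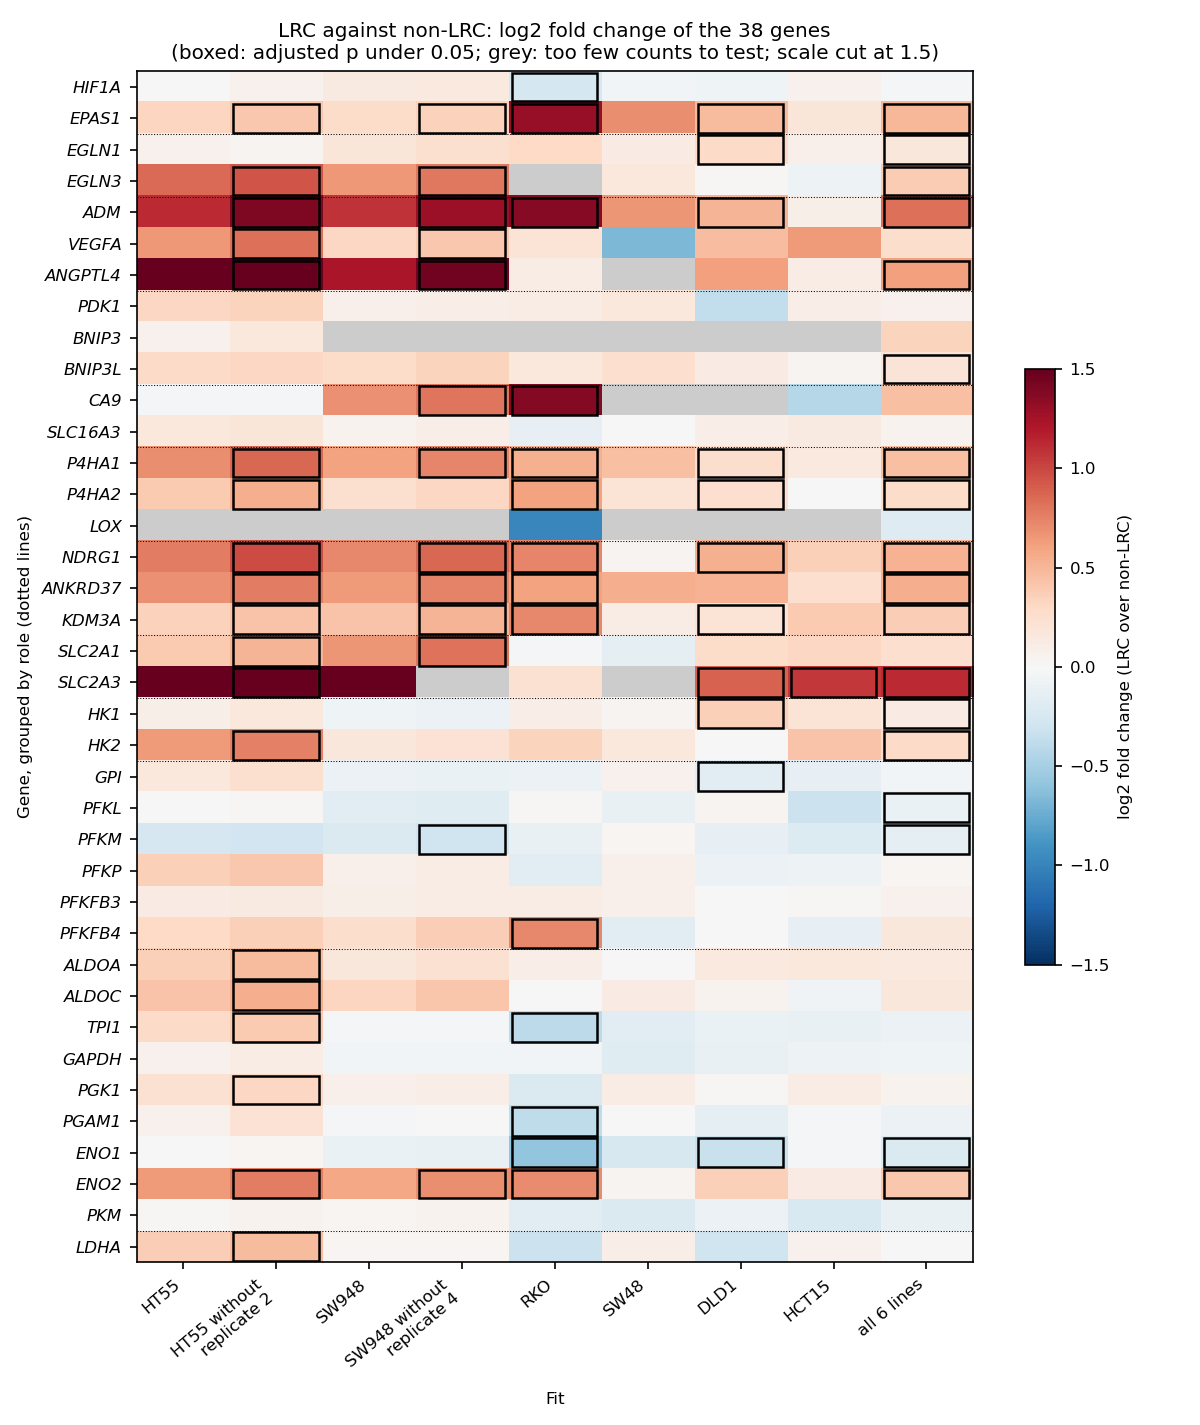
Log2 fold change of LRCs against non-LRCs for the 38 genes, across the 6 lines and in each line. EPAS1, ADM, P4HA1 and SLC2A3 lie to the higher side, whereas ENO1, PFKM and PFKL lie to the lower side across the lines.

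Taken by same-numbered samples, the 2 groups of genes differed in most pairs. In SW948 and RKO same-numbered samples did not deviate together, so pairs there are matched by number only. Medians over all genes were not taken by pair. The median difference (LRC minus non-LRC, log2 CPM) over the 18 subunit, hydroxylase and target genes was above 0 in 24 of 24 pairs, from 0.00134 to 0.72. The median over the 20 glucose genes was above 0 in 10 of 24 pairs, from -0.186 to 0.456. The first median exceeded the second in 23 of 24 pairs, the exception being HCT15 pair 2. The lowest medians of the first group were in HCT15 pair 1 (0.00134), HT55 pair 2 (0.00188) and SW948 pair 4 (0.0122). Without HT55 pair 2 and SW948 pair 4, 18 of the 38 genes passed the test across the lines (16 higher and 2 lower), against 25.4% of all genes, with ALDOA now higher and PFKL no longer called. Without HT55 replicate 2 alone, 19 of the 38 passed, against 24.8% of all genes.

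**Figure D2:**
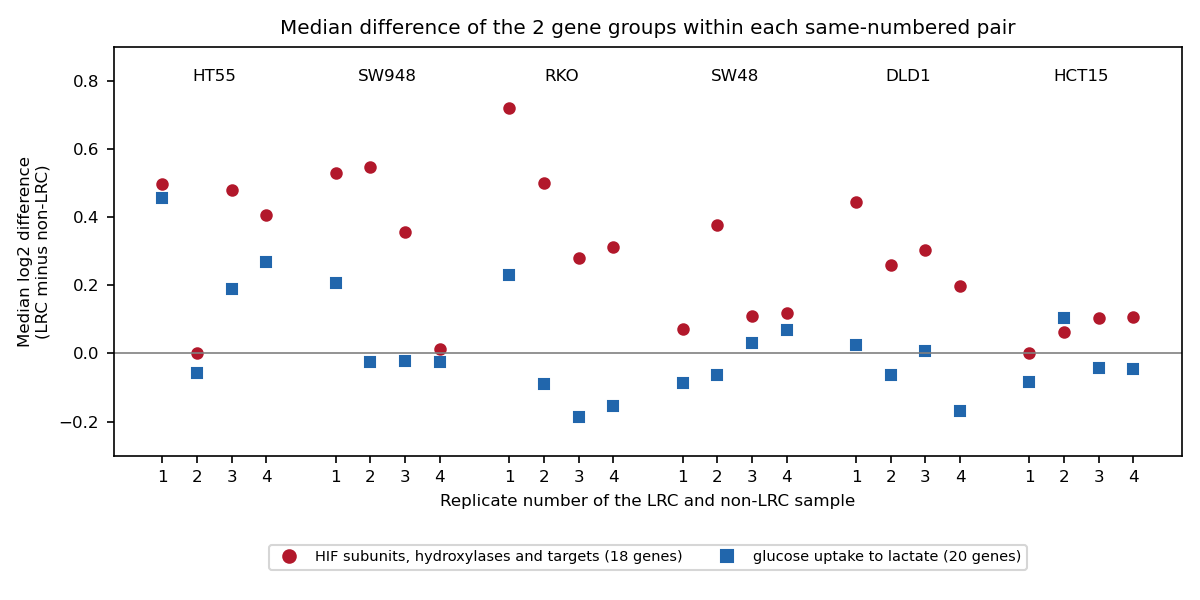
Median difference in log2 CPM between the LRC and the non-LRC sample of each same-numbered pair, for the 18 HIF subunit, hydroxylase and target genes and for the 20 glucose genes, by line. The HIF group lies above the glucose group in 23 of 24 pairs.

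Other measures moved with the LRCs as well. Of 14 proliferation genes, 7 fell across the lines and none rose, and of 13 mitochondrially encoded genes 8 rose and none fell. The fall in proliferation genes was not shared by every line. In HT55 without replicate 2 and in SW948 without replicate 4, 0 of 14 were called (median log2 fold changes 0.08 and -0.03). Of 12 genes induced by dissociation and sorting stress, 2 rose. The part of each in the results for the 38 genes was not tested, and in bulk samples fewer cells of a type and less RNA per cell cannot be told apart.

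Among the 38 genes, EPAS1 had the smallest p in the test of whether the LRC difference varied between the lines. In RKO, EPAS1 stood at 7.65, 7.73, 7.96 and 9.80 CPM in non-LRC replicates 1 to 4 and at 22.5, 19.3, 21.9 and 20.5 CPM in LRCs. In DLD1 it stood at 52.7, 58.5, 55.6 and 62.8 CPM in non-LRCs and at 82.2, 87.7, 78.1 and 69.2 CPM in LRCs. In both lines every LRC sample was above every non-LRC sample. In SW48, EPAS1 stood at 49.1, 26.7, 40.3 and 37.9 CPM in non-LRCs and at 68.3, 42.1, 73.6 and 66.7 CPM in LRCs. In SW948 it stood at 182, 175, 174 and 172 CPM in non-LRCs and at 234, 218, 214 and 177 CPM in LRCs. In each of these lines 1 LRC sample, replicate 2 of SW48 and replicate 4 of SW948, lay within the non-LRC range. HT55 had 144, 129, 131 and 152 CPM in non-LRCs and 202, 130, 160 and 201 CPM in LRCs. HCT15 had 115, 110, 89.5 and 92.4 CPM in non-LRCs and 115, 120, 117 and 106 CPM in LRCs. The groups overlapped in HT55, through replicate 2, and in HCT15.

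**Figure D3:**
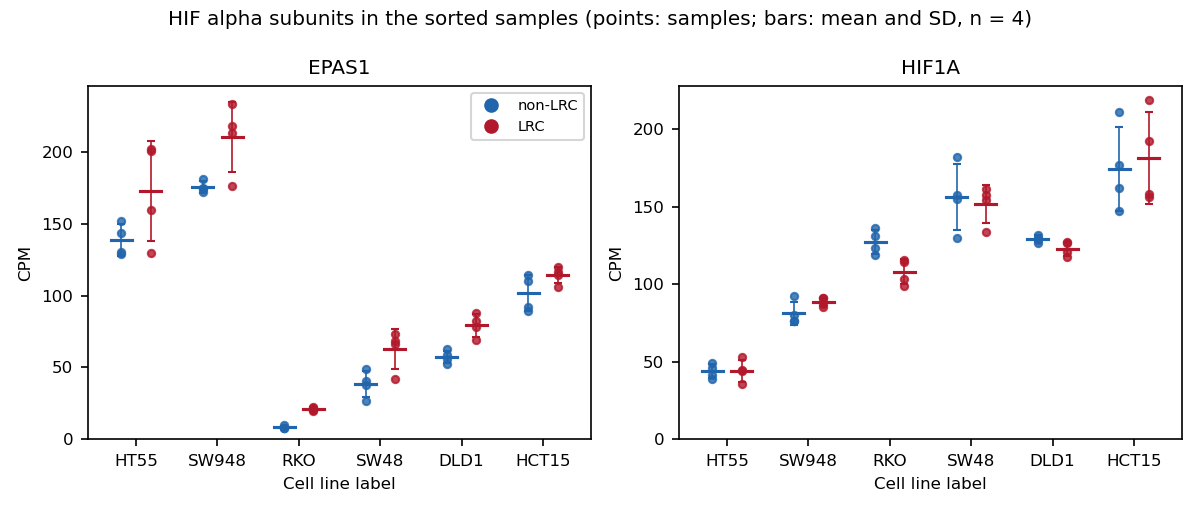
CPM of HIF1A and EPAS1 in each non-LRC and LRC sample of the 6 lines. EPAS1 is lowest in RKO, where LRCs stand at 19.3 to 22.5 CPM and non-LRCs at 7.65 to 9.80 CPM.

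The LRC difference varied between the lines for 4 of the 38 genes (test of the line by population terms), against 14.3% of all genes. These were EPAS1 (adjusted p = 0.000698), SLC2A3 (adjusted p = 0.00823), ENO1 (adjusted p = 0.0192) and CA9 (adjusted p = 0.0453). Without HT55 replicate 2 and SW948 replicate 4 the number was 11, against 20.5% of all genes, and it held ADM, EGLN3, P4HA2, KDM3A, ANGPTL4, PFKP and ENO2 besides the same 4. Without HT55 replicate 2 alone it was 10, against 19.2% of all genes. Without replicate 1 or 3 of every line 1 gene passed, and without replicate 4 of every line 2 did. Calls among all genes moved too, from 2380 with all samples to between 522 (without replicate 1) and 2850 (without replicate 2). With the replicate as a block the number was 22, against 33.6% of all genes, although same-numbered samples deviated together in only 4 of the 6 lines. The share of EPAS1 in the alpha subunit RNA per kilobase went from 4.77% in non-LRCs to 13% ± 1.23 (SD, n = 4) in LRCs of RKO. It went from 25.3% ± 1.29 to 33.0% ± 1.49 in DLD1, from 16% ± 4.58 to 23.9% ± 4.67 in SW48 and from 31% ± 1.94 to 32.8% ± 2.94 in HCT15.

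In HT55 the result turned on replicate 2. That pair was singled out by its small LRC difference, so p values without it describe the other pairs and are not an independent test. With all 8 samples, none of the 37 genes tested passed, and none of all 13391 genes did (0% called). At an unadjusted p of 0.05, 16 of the 37 passed, and DESeq2 called 4. Here and for the other lines, counts at an unadjusted p come without the share of all genes, so they are not set against a background. DESeq2 counts over all genes are given with the other settings further below. Without replicate 2, 19 of 37 rose and none fell, against 6.13% of all genes called and 4.3% called as higher, with 10 of 17 among the HIF subunits, hydroxylases and targets and 9 of 20 among the glucose genes. The median log2 fold change without replicate 2 was 0.39 over these genes and -0.000964 over all genes. With the replicate as a block and all pairs kept, edgeR called none of these genes and no gene at all, although 24 of them had an unadjusted p under 0.05. Leaving out any other replicate gave no call.

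In HT55, ADM stood at 20.8, 24.99, 24.3 and 22.8 CPM in non-LRC replicates 1 to 4 and at 61.7, 24.2, 59.1 and 56.8 CPM in LRCs. SLC2A3 stood at 55.3, 114, 52.1 and 54.4 CPM in non-LRCs and at 307, 114, 238 and 221 CPM in LRCs. VEGFA stood at 249, 231, 213 and 252 CPM in non-LRCs and at 458, 226, 380 and 414 CPM in LRCs. In all 3 genes LRC replicates 1, 3 and 4 were above every non-LRC sample and the samples of replicate 2 were nearly equal to each other. With all samples the log2 fold changes were 1.12 ± 0.24 for ADM (adjusted p = 0.433), 1.67 ± 0.31 for SLC2A3 (adjusted p = 0.433) and 0.65 ± 0.18 for VEGFA (adjusted p = 0.507). Without replicate 2 they were 1.399 ± 0.10 for ADM (adjusted p = 4.292e-06), 2.25 ± 0.12 for SLC2A3 (adjusted p = 3.608e-07) and 0.82 ± 0.11 for VEGFA (adjusted p = 0.000341).

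Of the 17 HIF subunits, hydroxylases and targets tested, EPAS1, NDRG1, P4HA1, P4HA2, KDM3A, ANGPTL4, ANKRD37 and EGLN3 also rose without replicate 2, whereas HIF1A, CA9, PDK1, BNIP3, BNIP3L, EGLN1 and SLC16A3 did not pass. P4HA1 stood at 90.9, 81.2, 73.1 and 81.0 CPM in non-LRCs and at 163, 87.0, 142 and 136 CPM in LRCs. ANGPTL4 stood at 3.59, 2.03, 2.81 and 4.35 CPM in non-LRCs and at 13.5, 2.14, 10.3 and 10.7 CPM in LRCs. For both, LRC replicate 2 was within the non-LRC range and the other LRC samples were above it. ANKRD37 stood at 27.3, 12.5, 24.6 and 27.9 CPM in non-LRCs and at 45.4, 12.5, 48.8 and 41.1 CPM in LRCs. EGLN3 stood at 46.6, 17.8, 37.4 and 47.3 CPM in non-LRCs and at 92.5, 17.9, 75.6 and 82.9 CPM in LRCs. For these, both samples of replicate 2 lay below all other HT55 samples. Without replicate 2 the log2 fold changes were 0.86 ± 0.11 for P4HA1 (adjusted p = 0.000291), 1.68 ± 0.20 for ANGPTL4 (adjusted p = 0.000158), 0.77 ± 0.11 for ANKRD37 (adjusted p = 0.000625) and 0.94 ± 0.12 for EGLN3 (adjusted p = 0.000291).

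The 9 glucose genes of HT55 that rose without replicate 2 ran from transport to lactate. SLC2A1 stood at 6224, 5780, 6274 and 7261 CPM in non-LRCs and at 9668, 5584, 8054 and 10250 CPM in LRCs. HK2 stood at 62.8, 47.1, 65.8 and 60.7 CPM in non-LRCs and at 115, 49.3, 107 and 95.8 CPM in LRCs. Replicate 2 apart, the LRC samples of both were above all non-LRC samples. PGK1, the phosphoglycerate kinase that yields ATP, stood at 559, 528, 574 and 582 CPM in non-LRCs and at 705, 509, 696 and 711 CPM in LRCs. LDHA, which turns pyruvate into lactate, stood at 693, 663, 658 and 736 CPM in non-LRCs and at 1005, 671, 927 and 955 CPM in LRCs. The order was again the same, with LRC replicate 2 low. Without replicate 2, the log2 fold changes were 0.51 ± 0.11 for SLC2A1 (adjusted p = 0.0108), 0.75 ± 0.10 for HK2 (adjusted p = 0.000291), 0.31 ± 0.08 for PGK1 (adjusted p = 0.0394) and 0.48 ± 0.09 for LDHA (adjusted p = 0.00552). ALDOA, ALDOC, TPI1 and ENO2 also rose without it. In these 6 samples the groups did not overlap for 22 of 37 genes with LRCs higher and 1 with LRCs lower, against 12.6% and 12.6% of all genes.

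In SW948, the other CCS1 line, the calls without a replicate block turned on replicate 4. As in HT55, that pair was singled out by its small LRC difference, so p values without it are not an independent test. With all 8 samples none of 36 genes tested was called, and none of all 13674 genes was (0%). At an unadjusted p of 0.05, 18 of the 36 passed, and DESeq2 called 2. Leaving out any other replicate gave no call. Without replicate 4, 13 of 35 passed (12 higher and 1 lower), against 7.02% of all genes called and 5.27% called as higher, and 10 of the 13 were among 16 HIF subunits, hydroxylases and targets. With all pairs kept and the replicate as a block, 11 of 36 rose and none fell, against 3.66% of all genes called, although same-numbered samples did not all deviate together in this line. With no filter on low counts 15 were called, and the count over all genes is given with the other settings further below.

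Here ADM stood at 24.3, 22.6, 14.7 and 13.3 CPM in non-LRC replicates 1 to 4 of SW948 and at 62.4, 47.6, 38.3 and 10.6 CPM in LRCs. CA9 stood at 56.5, 45.8, 40.6 and 36.5 CPM in non-LRCs and at 104, 74.1, 69.9 and 38.95 CPM in LRCs. P4HA1 stood at 89.0, 70.0, 81.8 and 70.2 CPM in non-LRCs and at 158, 131, 110 and 73.3 CPM in LRCs. LRC replicates 1 to 3 were above all non-LRC samples in each gene, and LRC replicate 4 was within or below the non-LRC range. EGLN3 stood at 89.9, 77.2, 59.9 and 59.9 CPM in non-LRCs and at 173, 130, 85.9 and 61.7 CPM in LRCs, and ANKRD37 at 13.1, 12.7, 9.97 and 8.53 CPM in non-LRCs and at 25.5, 20.7, 13.4 and 9.65 CPM in LRCs. For these genes the LRC and non-LRC samples overlapped. Without replicate 4 the log2 fold changes were 1.28 ± 0.18 for ADM (adjusted p = 0.00097), 0.81 ± 0.14 for CA9 (adjusted p = 0.00478) and 0.74 ± 0.12 for P4HA1 (adjusted p = 0.00295). They were 0.79 ± 0.19 for EGLN3 (adjusted p = 0.0261) and 0.75 ± 0.19 for ANKRD37 (adjusted p = 0.0306). ENO2 and SLC2A1 also rose, and PFKM fell.

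SLC2A3 was close to absent from SW948 non-LRCs, at 0.444, 0.452, 0.515 and 0.318 CPM, and stood at 9.47, 6.12, 2.65 and 0.715 CPM in LRCs. Every LRC sample was above every non-LRC sample, although the non-LRC values together rest on 26 reads. The log2 fold change with all samples was 3.41 ± 0.67 (adjusted p = 0.133), and without replicate 4 the gene was below the count filter. With the replicate as a block it was 3.29 (adjusted p = 8.474e-06).

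**Figure D4:**
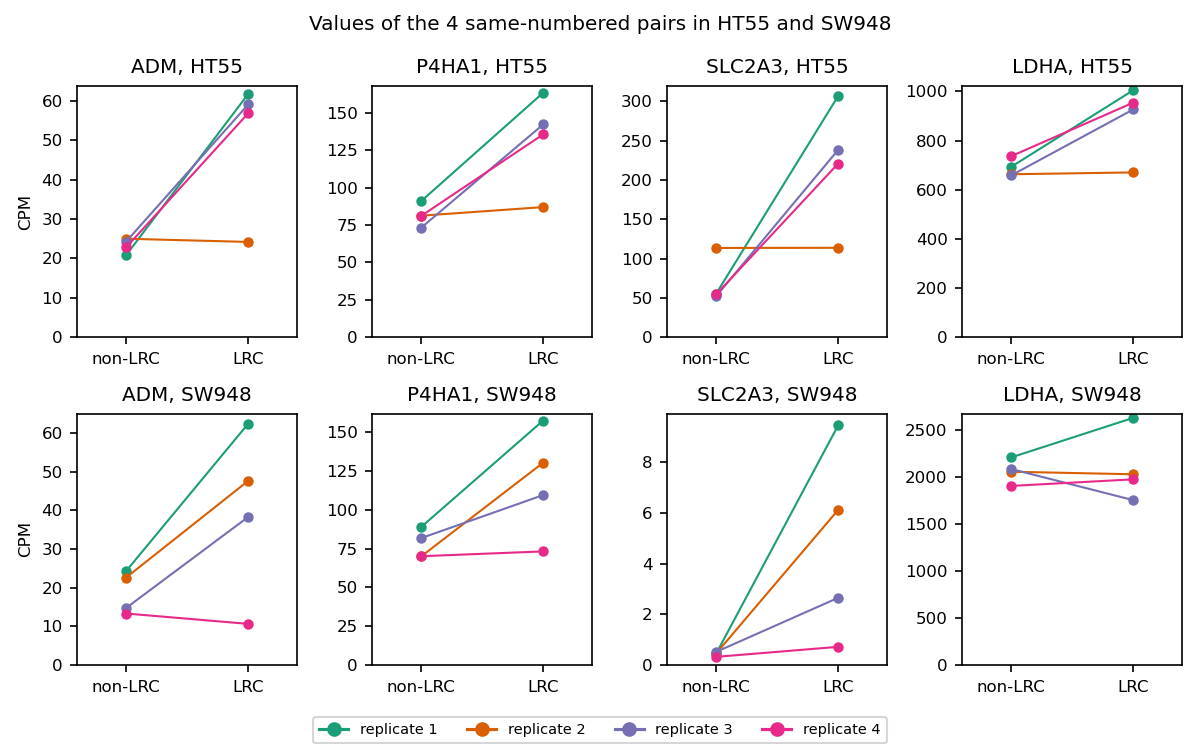
CPM of hypoxia and glycolysis genes in non-LRC and LRC samples of HT55 and SW948, with lines joining same-numbered samples. The lines of HT55 replicate 2 and SW948 replicate 4 run nearly flat for ADM and P4HA1, while the others rise from non-LRC to LRC.

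RKO had the most calls of the 6 lines, among the 38 genes and among all genes. Of 36 genes tested, 10 rose and 4 fell, against 41.5% of all genes, so the share of calls (38.9%) was near the background. Among the subunit, hydroxylase and target genes, 8 of 16 rose and 1 fell (median log2 fold change 0.42), and among the glucose genes 2 of 20 rose and 3 fell (median -0.03). Of all genes, 20.4% rose and 21% fell. The median over all genes was 0.01. Of the 14 proliferation genes, 13 fell in RKO LRCs and none rose, and of 13 mitochondrially encoded genes 12 rose. The part of these in the result was not tested.

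In RKO, ADM stood at 11.1, 9.03, 9.30 and 12.3 CPM in non-LRC replicates 1 to 4 and at 42.5, 24.3, 16.6 and 27.2 CPM in LRCs. CA9 stood at 27.7, 15.7, 8.67 and 31.2 CPM in non-LRCs and at 96.3, 42.1, 22.4 and 62.3 CPM in LRCs. The groups did not overlap for ADM, and for CA9 they did through LRC replicate 3. The log2 fold changes were 1.31 ± 0.11 for EPAS1 (adjusted p = 4.392e-07), 1.37 ± 0.21 for ADM (adjusted p = 0.00011) and 1.38 ± 0.36 for CA9 (adjusted p = 0.00594). NDRG1 stood at 161, 144, 108 and 203 CPM in non-LRCs and at 361, 209, 160 and 309 CPM in LRCs, and P4HA1 at 88.2, 89.5, 70.1 and 104 CPM in non-LRCs and at 160, 123, 81.9 and 154 CPM in LRCs. LRC replicate 3 was again the lowest LRC sample in both, inside the non-LRC range. The log2 fold changes were 0.73 ± 0.20 for NDRG1 (adjusted p = 0.00956) and 0.54 ± 0.16 for P4HA1 (adjusted p = 0.0126). HIF1A went the other way, from 131, 136, 119 and 124 CPM in non-LRCs to 99.1, 103, 115 and 114 CPM in LRCs, with no overlap and a log2 fold change of -0.26 ± 0.07 (adjusted p = 0.00798). ANKRD37, P4HA2 and KDM3A rose as well, by 0.60 to 0.73.

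The enolases of RKO moved in opposite directions. ENO2 stood at 193, 189, 164 and 231 CPM in non-LRCs and at 435, 303, 201 and 351 CPM in LRCs. ENO1 (GRCh37 chromosome 1, 8921059 to 8939249, minus strand) stood at 2285, 2330, 2431 and 2391 CPM in non-LRCs and at 1751, 1535, 1548 and 1514 CPM in LRCs. The ENO1 groups did not overlap and the ENO2 groups overlapped only through LRC replicate 3. The log2 fold changes were 0.71 ± 0.16 for ENO2 (adjusted p = 0.00281) and -0.60 ± 0.08 for ENO1 (adjusted p = 3.416e-05), and the share of ENO2 in both per kilobase went from 6.01% ± 0.83 to 13.5% ± 3.11 (SD, n = 4).

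TPI1, the triose phosphate isomerase, stood in RKO at 871, 908, 1020 and 1019 CPM in non-LRCs and at 803, 727, 720 and 708 CPM in LRCs, with a log2 fold change of -0.39 ± 0.08 (adjusted p = 0.00113). Its groups did not overlap. PGAM1, the phosphoglycerate mutase that precedes enolase, also fell (log2 fold change -0.38 ± 0.08, adjusted p = 0.00186). HK2 stood at 408, 400, 284 and 393 CPM in non-LRCs and at 589, 431, 356 and 523 CPM in LRCs, overlapping through LRC replicate 3, and its log2 fold change of 0.33 ± 0.13 was not called (adjusted p = 0.0558). PFKFB4, which makes the activator fructose 2,6-bisphosphate, stood at 41.2, 35.7, 28.5 and 45.9 CPM in non-LRCs and at 100, 53.1, 31.6 and 69.1 CPM in LRCs. It rose by 0.72 ± 0.23 (adjusted p = 0.022), and LRC replicate 3 lay inside the non-LRC range.

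In sorted DLD1, 9 of 35 genes tested rose and 2 fell, against 14.6% of all genes. The risers were EPAS1, ADM, NDRG1, EGLN1, P4HA1, P4HA2, KDM3A, SLC2A3 and HK1, and the genes that fell were GPI and ENO1. ADM stood at 12.3, 14.5, 9.21 and 10.4 CPM in non-LRC replicates 1 to 4 and at 18.3, 17.8, 15.4 and 14.2 CPM in LRCs. SLC2A3 stood at 5.60, 6.84, 4.05 and 6.14 CPM in non-LRCs and at 11.3, 12.7, 9.22 and 7.94 CPM in LRCs. The groups did not overlap for SLC2A3, and for ADM LRC replicate 4 was below the highest non-LRC sample. The log2 fold changes were 0.48 ± 0.08 for EPAS1 (adjusted p = 0.00365), 0.51 ± 0.14 for ADM (adjusted p = 0.0327) and 0.88 ± 0.18 for SLC2A3 (adjusted p = 0.0113).

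Of the 20 glucose genes in sorted DLD1, SLC2A3 and HK1 rose and GPI and ENO1 fell. HK1, the constitutive hexokinase, stood at 109, 106, 107 and 122 CPM in non-LRCs and at 135, 132, 150 and 145 CPM in LRCs, a log2 fold change of 0.36 ± 0.06 (adjusted p = 0.00505). ENO1 stood at 1312, 1208, 1264 and 1342 CPM in non-LRCs and at 1034, 973, 1058 and 976 CPM in LRCs, a log2 fold change of -0.33 ± 0.06 (adjusted p = 0.00509). Neither gene's groups overlapped, and they moved in opposite directions. LDHA stood at 553, 563, 484 and 514 CPM in non-LRCs and at 474, 485, 381 and 373 CPM in LRCs, a log2 fold change of -0.29 ± 0.09 (adjusted p = 0.054), and its groups met at LRC replicate 2. Same-numbered samples deviated together in DLD1, and with the replicate as a block 23 of 35 genes were called (16 higher and 7 lower), against 33.8% of all genes. VEGFA (0.48 ± 0.05, adjusted p = 2.083e-07), SLC2A1 (0.28 ± 0.05, adjusted p = 8.138e-05), ANGPTL4 (0.60 ± 0.13, adjusted p = 0.000889) and LDHA (-0.30 ± 0.04, adjusted p = 7.887e-06) were among those added. Leaving out replicate 1 left 2 of the 38 genes called, replicate 3 left 4 and replicate 4 left 5. Calls among all genes fell too, from 1978 with all samples to between 581 (without replicate 1) and 1515 (without replicate 2). Of the 14 proliferation genes 12 fell in DLD1 LRCs, and their part in the result was not tested.

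In HCT15 the only gene called of 36 was SLC2A3, against 0.977% of all genes. It stood at 85.4, 90.7, 60.8 and 50.97 CPM in non-LRC replicates 1 to 4 and at 152, 182, 153 and 112 CPM in LRCs, with no overlap and a log2 fold change of 1.06 ± 0.19 (adjusted p = 0.0429). Without replicate 1, 2 or 3 it was not called. VEGFA stood at 87.7, 95.4, 47.2 and 43.7 CPM in non-LRCs and at 136, 123, 90.7 and 73.8 CPM in LRCs. HK2 stood at 59.4, 63.9, 42.9 and 42.0 CPM in non-LRCs and at 75.0, 81.7, 66.3 and 56.4 CPM in LRCs. In both genes and both populations replicates 1 and 2 were above replicates 3 and 4, so that the groups overlapped although each LRC sample was above the non-LRC sample of its number. With the replicate as a block 10 of 36 genes were called (7 higher and 3 lower), against 21.3% of all genes, including VEGFA (0.68 ± 0.08, adjusted p = 2.126e-05), HK2 (0.44 ± 0.07, adjusted p = 0.000214) and NDRG1 (0.40 ± 0.07, adjusted p = 0.000609). CA9 stood at 30.4, 30.9, 25.98 and 21.6 CPM in non-LRCs and at 19.1, 23.7, 20.4 and 17.4 CPM in LRCs, and with the block it was lower in LRCs (log2 fold change -0.43 ± 0.09, adjusted p = 0.00219). In the same fit 5 of 14 proliferation genes rose and none fell, and of 12 sorting stress genes 1 rose and 6 fell, and their part in the result was not tested.

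SW48 gave no call among 33 genes tested, against 0.796% of all genes. At an unadjusted p of 0.05, 3 genes passed (EPAS1, ADM and P4HA1), and DESeq2 called 1. ADM stood at 6.42, 8.37, 7.44 and 5.13 CPM in non-LRC replicates 1 to 4 and at 10.03, 13.8, 11.6 and 8.22 CPM in LRCs, and the groups overlapped only at LRC replicate 4. With the replicate as a block, EPAS1 (0.70 ± 0.08, adjusted p = 0.000674) and ADM (0.67 ± 0.11, adjusted p = 0.00495) were called, 2 of 33 against 9.69% of all genes. In the same fit 11 of 14 proliferation genes fell and 13 of 13 mitochondrially encoded genes rose, and their part in the result was not tested. VEGFA stood at 213, 38.3, 165 and 165 CPM in non-LRCs and at 124, 49.6, 97.0 and 94.9 CPM in LRCs, with a log2 fold change of -0.67 ± 0.43 (adjusted p = 0.548). NDRG1 stood at 380, 81.9, 240 and 202 CPM in non-LRCs and at 253, 234, 234 and 208 CPM in LRCs. In both genes non-LRC replicate 2 was the lowest of the 8 samples.

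In the control libraries labelled DLD1, the comparisons asked what time in culture and the dye did without any split by brightness. In CFSE-labelled cells, 9 of 36 genes differed between day 5 and day 1 (6 higher and 3 lower), against 39.3% of all genes. In DMSO-treated cells 12 of 36 rose and none fell, against 25.5% of all genes called and 12.4% called as higher. The median log2 fold change was 0.17 with CFSE and 0.35 with DMSO, where all genes had medians of 0.02 and 0.04. The medians of these genes were 0.04 and 0.12 without replicate 1, 0.06 and 0.28 without replicate 2, and -0.05 and -0.16 without both, and they were 0.05 and 0.21 without TMM scaling, where all genes had medians of -0.09 in both. The medians of these genes were higher without replicate 3 alone (0.20 and 0.46) and without replicate 4 alone (0.21 and 0.39). Both time comparisons use their own samples, but all comparisons of dye share groups with them. None of the 38 genes passed the test of a time difference that depended on the dye, against 0.999% of all genes. At an unadjusted p of 0.05, 11 of the 36 passed, a count that comes without the share of all genes. DESeq2 called 3, and its count over all genes is given further below.

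The DMSO result rested on a few libraries, and leaving out replicate 1, 2 or 3 alone left no call (3, 9 and 17 of the 36 genes then had an unadjusted p under 0.05). These unadjusted counts come without the share of all genes. Among all genes, too, none was called without replicate 1. Leaving out replicate 4 alone raised the calls to 15 of the 38 genes. It raised those among all genes to 6378, against 3695 with all samples. On day 5, P4HA1 stood at 608, 210, 101 and 83.8 CPM in DMSO replicates 1 to 4, after 82.2, 80.5, 98.7 and 92.7 CPM on day 1. SLC2A3 stood at 383, 169, 66.8 and 57.02 CPM on day 5 and at 66.9, 60.5, 73.7 and 59.01 CPM on day 1. CA9 stood at 90.7, 50.99, 18.3 and 17.6 CPM on day 5 and at 15.9, 14.2, 13.4 and 16.7 CPM on day 1. In each gene replicates 1 and 2 of day 5 were far above the rest and replicates 3 and 4 were near the day 1 values. ANGPTL4 stood at 66.4, 31.2, 7.98 and 8.01 CPM on day 5 and at 2.99, 2.99, 0.818 and 6.66 CPM on day 1. PGK1 stood at 1057, 612, 345 and 331 CPM on day 5 and at 339, 328, 379 and 321 CPM on day 1, and LDHA at 1865, 1027, 445 and 400 CPM on day 5 and at 814, 764, 790 and 419 CPM on day 1. The order was the same in both, and LDHA in replicates 3 and 4 of day 5 lay below replicates 1 to 3 of day 1.

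The log2 fold changes with all DMSO samples were 1.49 ± 0.41 for P4HA1 (adjusted p = 0.0196), 1.37 ± 0.40 for SLC2A3 (adjusted p = 0.0239), 1.55 ± 0.36 for CA9 (adjusted p = 0.0105), 3.05 ± 0.75 for ANGPTL4 (adjusted p = 0.0121) and 0.77 ± 0.26 for PGK1 (adjusted p = 0.0406). EPAS1, BNIP3L, ANKRD37, P4HA2, PFKL, ALDOC and SLC16A3 rose as well. Without replicates 1 and 2 of every control group, edgeR called no gene at all (1676 genes, none of them among the 38, had an unadjusted p under 0.05), and ANKRD37, P4HA1, SLC2A3, ALDOC and PGK1 had log2 fold changes below 0. The median SD of the HIF subunit, hydroxylase and target genes among the 4 DMSO samples of day 5 was 0.946 log2 CPM, against 0.226 over all genes. Replicate 1 of that group also had the highest summed mitochondrially encoded genes of the controls (61830 CPM) and the lowest summed proliferation genes (2018 CPM), and their part was not tested.

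The EPAS1 values of day 5 lay closer together than those of day 1. With DMSO it stood at 34.1, 37.4, 38.4 and 70.5 CPM on day 1 and at 78.3, 78.9, 83.8 and 72.3 CPM on day 5. With CFSE it stood at 65.9, 71.4, 33.4 and 31.7 CPM on day 1 and at 68.1, 68.0, 70.9 and 73.6 CPM on day 5. The 8 samples of day 5 lay between 68.0 and 83.8 CPM. On day 1, replicates 1 and 2 were the high samples with CFSE, and replicate 4 alone was high with DMSO. That DMSO library had the lowest mean r with its own group. Its summed proliferation genes stood at 2638 CPM, against 3964, 4092 and 4057 CPM in DMSO day 1 replicates 1 to 3. The DMSO day 5 libraries held 2018 to 2889 CPM. Whether the day label of that library is off was not tested. The log2 fold change of EPAS1 was 0.79 ± 0.25 with DMSO (adjusted p = 0.0333) and 0.43 ± 0.25 with CFSE (adjusted p = 0.19). HIF1A stood at 177, 173, 184 and 187 CPM with CFSE on day 1 and at 258, 276, 223 and 231 CPM on day 5, with no overlap and a log2 fold change of 0.41 ± 0.11 (adjusted p = 0.00774). With DMSO, HIF1A stood at 165, 160, 205 and 194 CPM on day 1 and at 200, 215, 200 and 163 CPM on day 5.

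On day 1 with CFSE, replicates 1 and 2 stood apart from 3 and 4. ADM stood there at 69.8, 74.0, 8.38 and 8.62 CPM, and at 5.33, 5.05, 5.67 and 2.43 CPM with DMSO. PFKFB3, the isoform that favours glycolysis, stood at 125, 124, 37.9 and 35.5 CPM with CFSE and at 38.5, 36.5, 34.0 and 37.7 CPM with DMSO. Replicates 1 and 2 with CFSE carried most of the difference in both genes. The same samples had summed sorting stress genes at 4547 and 4027 CPM, against 1035 and 1044 CPM in replicates 3 and 4 and 618 to 1388 CPM in the other control libraries. The part of these genes in the result was not tested. CFSE against DMSO on day 1 gave 4 calls of 36, against 21.8% of all genes. ADM (3.16 ± 0.77, adjusted p = 0.00961), HK2 (0.998 ± 0.33, adjusted p = 0.0401) and PFKFB3 (1.17 ± 0.40, adjusted p = 0.0447) rose and PFKL (-0.81 ± 0.11, adjusted p = 0.000469) fell. Without replicates 1 and 2 there were 2 calls, without replicate 1 or 2 alone 1, without replicate 3 alone 2 and without replicate 4 alone 7. Among all genes the calls were 3162 with all samples, 338 without replicate 2 alone and 3384 without replicate 4 alone.

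PFKL, the liver phosphofructokinase, separated all groups of the controls. It stood at 69.1, 71.6, 98.1 and 96.7 CPM with CFSE on day 1 and at 145, 137, 139 and 148 CPM with CFSE on day 5. With DMSO it stood at 149, 149, 151 and 150 CPM on day 1 and at 206, 199, 169 and 173 CPM on day 5. The groups overlapped in neither time comparison and in neither dye comparison. The log2 fold change with time was 0.72 ± 0.11 with CFSE (adjusted p = 0.000295) and 0.32 ± 0.11 with DMSO (adjusted p = 0.0467).

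Over time with CFSE, ADM fell from the day 1 values above to 6.84, 3.68, 3.08 and 3.07 CPM (-3.33 ± 0.78, adjusted p = 0.00355) and HK2 from 177, 189, 136 and 137 CPM to 94.6, 93.4, 67.7 and 67.6 CPM (-1.03 ± 0.33, adjusted p = 0.0219). The groups did not overlap in either gene. PKM, the pyruvate kinase, went from 2185, 2531, 2739 and 2693 CPM to 4256, 4379, 3272 and 3461 CPM, also with no overlap (0.56 ± 0.15, adjusted p = 0.00934). P4HA2, SLC2A1 and PGAM1 rose and KDM3A fell. Without replicates 1 and 2 of every control group 4 genes were called in place of 9, without replicate 1 alone 5 and without replicate 2 alone 1. Of all genes, 2858 were called without replicate 2 alone, against 5706 with all samples.

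With DMSO on day 5, HK2 stood at 147, 98.8, 48.5 and 38.2 CPM, after 91.7, 93.1, 99.0 and 42.9 CPM on day 1, and ADM at 23.5, 9.39, 1.92 and 3.15 CPM. The day 5 values of both genes straddled those of day 1. CFSE against DMSO on day 5 gave 4 calls of 36, all lower with CFSE, against 5.13% of all genes called and 2.03% called as lower. These were CA9 (-1.43 ± 0.36, adjusted p = 0.0346), ANGPTL4 (-2.78 ± 0.74, adjusted p = 0.0399), ALDOC (-2.59 ± 0.66, adjusted p = 0.034) and PFKL (-0.40 ± 0.11, adjusted p = 0.0468). CA9 with CFSE stood at 7.61, 9.51, 8.38 and 9.64 CPM on day 1 and at 15.8, 17.1, 15.3 and 17.9 CPM on day 5. On day 5 it overlapped the DMSO samples only at replicate 4 of each. Without replicates 1 and 2 edgeR called none of the 38 and 2 genes in all. Of the 38, 5 then had an unadjusted p under 0.05, given without the share of all genes. Without any of replicates 1, 2 or 3 alone edgeR also called none of the 38, and without replicate 1 alone it called no gene at all. Without replicate 4 alone it called 9 of the 38 and 1604 of all genes.

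**Figure D5:**
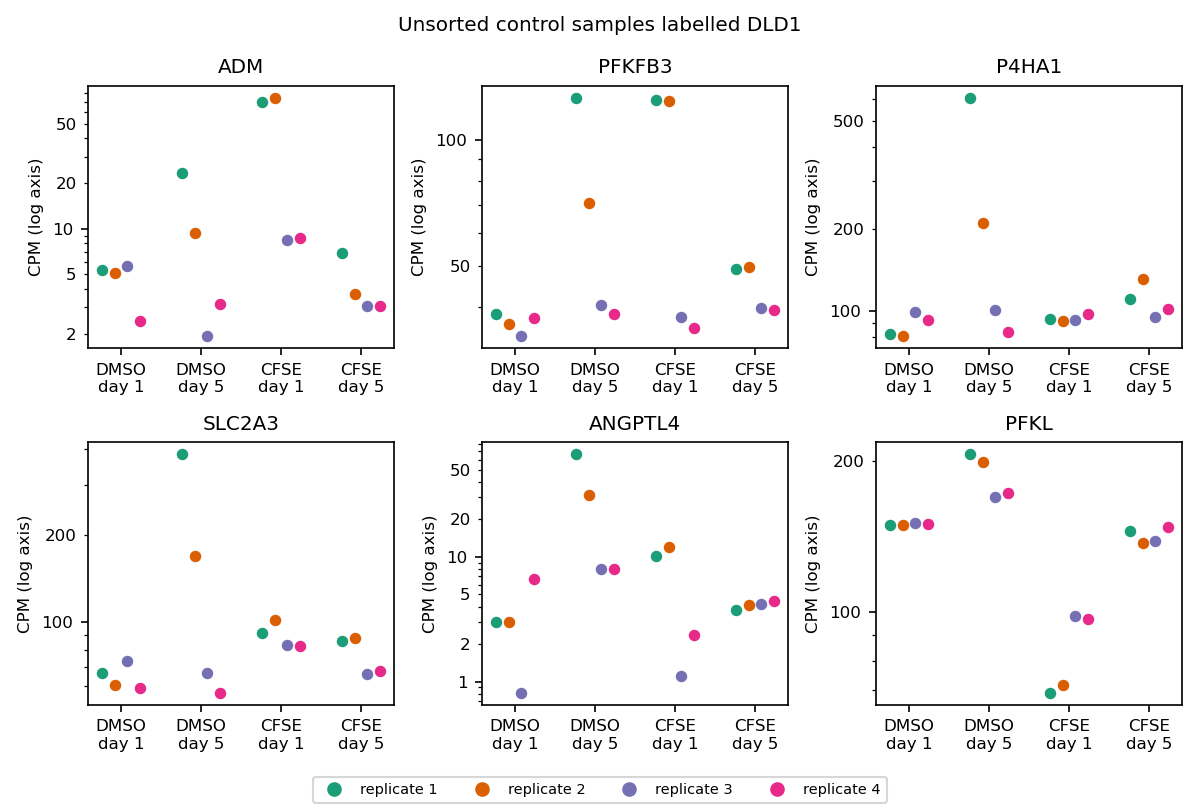
CPM of hypoxia and glycolysis genes in the 16 control libraries labelled DLD1, by dye and day, on a log scale. Replicates 1 and 2 of DMSO day 5 stand above all other libraries for P4HA1 and SLC2A3, and replicates 1 and 2 of CFSE day 1 stand above the others for ADM.

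The rest of the oxygen-sensing and glucose pathways was examined with lists of further genes. Among 34 other HIF regulators and targets tested across the 6 lines, 13 rose and 1 fell in LRCs, against 12.2% of all genes higher and 10.7% lower. The 6 with the smallest p all rose: HMOX1, heme oxygenase (0.65 ± 0.07, adjusted p = 3.484e-08), the kinase RIOK3 (0.38 ± 0.05, adjusted p = 1.035e-07), IGFBP3, which binds insulin-like growth factors (1.25 ± 0.19, adjusted p = 2.979e-06), the secreted stanniocalcin STC2 (0.80 ± 0.17, adjusted p = 0.000543), the repressor BHLHE41 (0.89 ± 0.21, adjusted p = 0.00128) and MXI1, an antagonist of MYC (0.27 ± 0.07, adjusted p = 0.00205). Among 35 other genes of glucose metabolism, 2 rose and 10 fell, against the same shares of all genes. The 6 with the smallest p all fell: G6PC3, a glucose 6-phosphatase (-0.26 ± 0.04, adjusted p = 6.19e-06), PGD of the pentose phosphate pathway (-0.18 ± 0.03, adjusted p = 3.761e-05), the pyruvate dehydrogenase subunits PDHB (-0.20 ± 0.04, adjusted p = 7.657e-05) and PDHA1 (-0.20 ± 0.04, adjusted p = 7.92e-05), the transketolase TKT (-0.20 ± 0.04, adjusted p = 0.000911) and LDHB, the heart lactate dehydrogenase (-0.18 ± 0.05, adjusted p = 0.00276).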

How the data were processed

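RNA of 64 samples was sequenced as 50-bp single-end reads and, per the study's methods, aligned to hg19. The submitters' processing notes name TopHat, HTSeq and DESeq without versions, and a strand setting is not given in the sources used here. The deposited tables hold unnormalized read counts by gene. Of the reads listed in the tables, 20.03% to 31.83% aligned to several places, 3.96% to 11.76% fell outside genes and 1.199% to 1.597% were ambiguous, and these were left out of library sizes and tests. At this depth a gene with few reads carries a large counting error.

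Groups and replicate numbers came from the sample labels. Counts were tested in R 4.3.3 with edgeR 4.0.16 (quasi-likelihood, two-sided, TMM, at least 10 counts in at least 4 samples, Benjamini-Hochberg over all genes, threshold 0.05). Each line was tested with its own 8 samples, the 48 sorted samples with line as a covariate, and the 16 controls with 4 group means. All 38 genes may be named, and from each further list the 6 genes with the smallest p across the lines and the 6 with the smallest p over time with CFSE. CPM values use TMM library sizes. The members, gene lists and tests were chosen with earlier results of these data known. Positions are from GENCODE 44 on GRCh37. EGLN2 and PECAM1 were not analysed here.

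Same-numbered LRC and non-LRC samples deviated together in HT55 (r = 0.22 to 0.511), SW48 (0.185 to 0.609), DLD1 (0.254 to 0.502) and HCT15 (0.333 to 0.562), so values with the replicate as a block stand beside those results. They did not in SW948 (-0.0134 to 0.229), RKO (-0.091 to 0.00909) or the controls (-0.273 to 0.509). Alternatives were DESeq2 1.42.0, no count filter, no TMM, the replicate block and each replicate left out. The tests were tried on simulated counts.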

Additional observations from a re-analysis of the deposited data

Results flagged for a closer look

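For the genes whose values by sample are given above, the highest or lowest of the 4 samples in a group was checked against the gap to its neighbour, by Dixon's critical value at 95%. It was exceeded in 12 of 142 groups (8.45%), where chance gives about 1 in 20. In HT55, replicate 2 was such a sample for ADM in LRCs (24.2 CPM), PGK1 in LRCs (509 CPM) and SLC2A3 in non-LRCs (113.5 CPM). In RKO it was EPAS1 in non-LRC replicate 4 (9.80 CPM), HK2 in non-LRC replicate 3 (284 CPM) and ENO1 in LRC replicate 1 (1751 CPM). In sorted DLD1 it was HK1 in non-LRC replicate 4 (122 CPM). Among the controls, DMSO day 1 replicate 4 stood apart for EPAS1 (70.5 CPM), HK2 (42.9 CPM), LDHA (419 CPM) and PKM (2374 CPM), and CFSE day 5 replicate 1 for ADM (6.84 CPM).

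The LRC difference varied between the lines, by the test of the line by population terms (edgeR, Benjamini-Hochberg adjusted), for EPAS1 (adjusted p = 0.000698), SLC2A3 (adjusted p = 0.00823), ENO1 (adjusted p = 0.0192) and CA9 (adjusted p = 0.0453). The log2 fold change of EPAS1 ranged from 0.18 in HCT15 to 1.31 in RKO, that of SLC2A3 from 0.23 in RKO to 1.67 in HT55, with 3.41 in SW948, where its non-LRC samples held only 26 reads in all, and that of CA9 from -0.43 in HCT15 to 1.38 in RKO, among the lines where each was tested.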

How the results depend on the processing

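Counts are given as calls among the 38 genes and, after a slash, among all genes. With the replicate as a block the calls became 11/501 in SW948, 2/1279 in SW48, 23/4591 in DLD1, 10/2987 in HCT15 and 22/5584 between the lines, 1511 of all genes for dye on day 5, and 1 of the 38 for the time difference that depended on dye. The block moved no other count by over 1.5 times. With DESeq2 they were 4/37 in HT55, 2/244 in SW948, 1/361 in SW48, 2/531 in HCT15, 8/1521 for dye on day 5 and 3/623 for time by dye, and 7 of the 38 between the lines. With no filter on low counts they were 7/102 in HT55, 15/973 in SW948, 1/285 in SW48, 2/347 in HCT15, 6/454 for time by dye, and 14, 7 and 8 of the 38 between the lines, for dye on day 1 and for dye on day 5. Without TMM, 7 of the 38 were called for time with DMSO and 85 of all genes for time by dye, and the median log2 fold change of all genes with time moved from 0.02 to -0.09 (CFSE) and from 0.04 to -0.09 (DMSO). Without RKO, 2378 of all genes were called across the lines. The following were added after seeing the data. Between the lines 10 of the 38 were called without HT55 replicate 2, and 11/3384 without SW948 replicate 4 as well, which also gave 18/4203 across the lines. Without replicates 1 and 2 of every control group the calls were 4/1908 (time, CFSE), 0/0 (time, DMSO), 2/677 (dye, day 1), 0/2 (dye, day 5) and 2 of all genes (time by dye), and log2 fold changes with time turned for SLC2A1 with CFSE (-0.0286) and, with DMSO, for ANKRD37 (-0.29), P4HA1 (-0.0814), SLC2A3 (-0.13), ALDOC (-0.25) and PGK1 (-0.0825). The causes were not tested.

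With each replicate left out in turn, calls ranged from 0 to 19 (all genes 0 to 808) in HT55, 0 to 13 (0 to 940) in SW948, 12 to 19 (3387 to 4721) in RKO, 0 to 2 (0 to 497) in SW48, 2 to 9 (581 to 1515) in DLD1 and 0 to 1 (0 to 27) in HCT15. They ranged from 14 to 18 (2243 to 2945) across the lines, 1 to 10 (522 to 2850) between them, 1 to 10 (2858 to 5692) for time with CFSE, 0 to 15 (0 to 6378) for time with DMSO, 1 to 7 (338 to 3384) and 0 to 9 (0 to 1604) for dye on days 1 and 5, and 0 to 4 (0 to 1068) for time by dye. Of the 77 calls made for the 38 genes in all comparisons, 72 were kept with DESeq2, 72 with no filter, 67 without TMM and 73 with the block, but only 31, 41, 43 and 65 without replicates 1, 2, 3 and 4, and none turned direction in these. Genes with a few reads in a line, such as CA9 in SW48 and sorted DLD1 or BNIP3 outside HT55, could not be tested at this depth.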

Other observations

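Over time in CFSE-labelled control cells, genes of the further lists differed between the days too. Among 32 other HIF regulators and targets, 5 rose and 8 fell from day 1 to day 5, with ELOB, a subunit of the VHL ubiquitin ligase, higher (log2 fold change 0.73) and STC1, a secreted stanniocalcin, lower (-4.39). Among 30 other genes of glucose metabolism, 14 rose and 2 fell, with LDHB (0.79) and the transaldolase TALDO1 (0.57) higher and the muscle enolase ENO3 lower (-1.65), against 39.3% of all genes called.

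In HT55 without replicate 2, 12 of 30 other HIF regulators and targets rose and 1, the transferrin receptor TFRC, fell. STC2 (1.52) and MXI1 (1.01) were among those that rose. Of 31 other genes of glucose metabolism 2 were called, PCK1 higher and HKDC1 lower, against 6.13% of all genes. TFRC, PCK1 and HKDC1 were named after their values were seen. In RKO, 12 of 30 other HIF regulators and targets rose and 7 fell, against 41.5% of all genes.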
